A study of Mus musculus with 12 samples.

Results

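The genes described here are interferon-induced genes, 40 in all, chosen by name as genes that cells switch on after type I interferon. Of these, 37 were measured among the 22180 genes of the array, each through its brightest probe set among those annotated with that symbol and no other. Oas1a and Dtx3l were not measured apart, because their probe sets are annotated jointly with Oas1g and Parp9, and Ifi44 was not analysed here. The cells were primary aortic smooth muscle cells of the inbred mouse strain C57BL/6J, with no genetic change named in the labels, at passage 3 to 4 in DMEM with 10% FCS (fetal calf serum). The medium of 1 group held 0.3 g/l (1.7 mM) glucose and that of the other 4.5 g/l (25 mM), with 6 arrays each, numbered as replicates 1 to 6. The series text gives 14 days of culture and the sample labels give 1 week. The question addressed was how the glucose level alters expression. The labels do not say whether replicates were separate cultures or animals, so the p-values reflect the spread among these samples alone, and that spread may be technical.

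Type I interferons bind the receptor made of Ifnar1 and Ifnar2, and the kinases Jak1 and Tyk2 then phosphorylate Stat2. Stat2 and Irf9 are subunits of the factor ISGF3, which binds interferon-stimulated response elements in the promoters of the induced genes. The products sense viral nucleic acid, block viral replication, or feed back on the pathway: Irf7 amplifies interferon production, and Usp18 removes Isg15 from proteins and damps the receptor. Vascular smooth muscle cells carry the receptor and can respond to interferon.

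Promoter sequences are printed because a shared element is what the definition of this gene group implies and the choice by name did not use. RefSeq (GRCm38.p6) promoters of 250 bases before to 50 after the start were matched by symbol for 31 of the 40 genes. The core of the interferon-stimulated response element was searched as GAAANNGAAA on both strands, overlaps allowed. It was found in 13 of the 31 genes (41.9%), against 3.99% of all 27025 genes with a promoter of this length. The interferon-gamma-activated site core TTCNNNGAA, which reads the same on both strands, was found in 7 of the 31 (22.6%), against 9.55% of all. This core was in 0 of the 15 genes called lower at high glucose below, and in 6 of the 13 measured but not called lower. Those 6 were Bst2, Eif2ak2, Ifi35, Ifit2, Psmb8 and Samhd1. The fit without 0.3 g/l replicate 4, described below, also called Bst2, Eif2ak2, Ifi35 and Ifit2 lower. The split thus depends on 1 array and on the threshold. The response element core was in 8 of those 15 and in 4 of those 13. The 250 bases before the start are given for 6 genes, 5′ to 3′ on the gene's own strand, with the response element core in capitals. Ifit1 (chr19:34640639-34640888, + strand), Isg15 (chr4:156200819-156201068, − strand) and Apol9b (chr15:77728822-77729071, + strand, the more upstream of its starts) are shown as genes with large differences. Bst2 (chr8:71537473-71537722, − strand) shows how overlapping cores form a longer run, Oas3 (chr5:120777660-120777909, − strand) has a core and a difference near 0, and Samhd1 (chr2:157135097-157135346, − strand) moved the other way.
Ifit1: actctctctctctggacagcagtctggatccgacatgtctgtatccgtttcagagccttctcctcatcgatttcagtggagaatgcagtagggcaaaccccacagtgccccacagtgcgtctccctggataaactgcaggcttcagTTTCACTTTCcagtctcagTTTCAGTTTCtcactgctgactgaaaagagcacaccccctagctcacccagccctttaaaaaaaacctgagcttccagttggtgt
Isg15: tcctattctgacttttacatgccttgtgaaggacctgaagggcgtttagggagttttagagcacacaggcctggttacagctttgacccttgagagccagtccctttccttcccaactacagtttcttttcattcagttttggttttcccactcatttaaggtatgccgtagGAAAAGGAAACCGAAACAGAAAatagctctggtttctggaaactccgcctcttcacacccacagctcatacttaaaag
Apol9b: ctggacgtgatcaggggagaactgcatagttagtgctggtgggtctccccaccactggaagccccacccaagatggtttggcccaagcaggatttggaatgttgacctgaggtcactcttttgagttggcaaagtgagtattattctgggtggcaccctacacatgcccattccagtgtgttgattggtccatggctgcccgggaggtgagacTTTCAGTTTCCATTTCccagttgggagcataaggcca
Bst2: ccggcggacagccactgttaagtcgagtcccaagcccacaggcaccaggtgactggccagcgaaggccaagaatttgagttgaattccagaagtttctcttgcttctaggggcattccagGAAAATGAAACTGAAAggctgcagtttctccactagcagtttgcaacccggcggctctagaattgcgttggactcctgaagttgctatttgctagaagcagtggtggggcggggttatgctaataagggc
Oas3: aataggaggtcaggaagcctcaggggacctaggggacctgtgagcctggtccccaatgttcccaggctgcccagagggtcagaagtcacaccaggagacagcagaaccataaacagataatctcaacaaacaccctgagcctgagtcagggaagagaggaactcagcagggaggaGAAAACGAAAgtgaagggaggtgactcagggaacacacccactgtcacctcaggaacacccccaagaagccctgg
Samhd1: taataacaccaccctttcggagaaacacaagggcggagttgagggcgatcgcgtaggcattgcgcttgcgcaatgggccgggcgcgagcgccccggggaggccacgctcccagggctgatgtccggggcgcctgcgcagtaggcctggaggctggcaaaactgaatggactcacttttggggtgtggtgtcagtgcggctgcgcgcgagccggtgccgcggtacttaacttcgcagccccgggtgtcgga
In Ifit1 the cores begin 104 and 85 bases before the start, and in Isg15 3 overlapping cores form a run that begins 78 bases before it. The runs begin 37 bases before the start in Apol9b and 130 in Bst2, and the Oas3 core begins 75 bases before it. These letters are not in the Samhd1 window. Such matches are descriptions of sequence and say nothing about binding in these cells.

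All values are log2 values after RMA, an array method that corrects background, makes the distributions of the arrays alike and sums up the probes of a gene. Array medians over all probe sets ran from 4.92 to 5.05. Replicate 4 of the 0.3 g/l group stood apart from its group: over all genes it correlated at 0.984 to 0.987 with the rest of its group and at 0.991 to 0.992 with the 4.5 g/l arrays. It was kept, and results are given with and without it. Of 8 smooth muscle markers 7 rose in 4.5 g/l (Des did not pass), against 7.01% of all genes. The mean of the 8 was 10.16 in 0.3 g/l replicate 4, 8.94 to 9.13 in the others at 0.3 g/l and 10.72 to 10.97 at 4.5 g/l. Markers of endothelial cells ranged widely in brightness. Emcn, Cdh5 and Pecam1 had means of 11.71, 11.10 and 9.74 in 0.3 g/l. Others, such as Vwf (6.04), Kdr (5.52), Cldn5 (5.26), Robo4 (5.05) and Sox18 (4.92), lay nearer the array medians. Macrophage and leukocyte markers did not pass in any of 14 cases (limma, 0 lower or higher, and 0 with an unadjusted p under 0.05; rank-sum test, also 0). In this list 4 of the 14, among them Ptprc (3.29 in 0.3 g/l), Adgre1 (3.87) and Mrc1 (3.82), had a mean over all arrays under the 4.20 that marks off the dimmest 25% of genes. The other 10 were above it, with Cd68 at 7.33, Cx3cr1 at 6.07 and Lyz2 at 5.85 in 0.3 g/l. The adipocyte and mesothelial list had 0 of 8 passing (1 with an unadjusted p under 0.05 in limma and 1 in the rank-sum test). The fibroblast list had 1 of 7, Mfap5, where limma called 15.5% of all genes either way.

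Most interferon-induced genes were lower in 4.5 g/l glucose. Of 37 measured, 21 fell and 1, Samhd1, rose, at a limma adjusted p of 0.05 over all genes; the same rule called 8.52% of all genes lower and 7.01% higher. The median log2 difference, 4.5 minus 0.3 g/l, was -0.62, against -0.01 over all genes, and the members ran from -2.35 to 0.42. At least 2-fold falls were seen in 9 members, against 0.546% of all genes. Without 0.3 g/l replicate 4 the fit called 29 lower and 1 higher (background 13.6% and 10.3%), with a median of -0.78. Leaving out other arrays lowered the count: 12 members fell without 0.3 g/l replicate 1, 3, 5 or 6 or 4.5 g/l replicate 4, and 13 without 4.5 g/l replicate 6. Of the 21 members, 12 kept the call whichever array was left out. The other 9, Ddx58, Ifih1, Stat2, Irf9, Isg15, Herc6, Trim25, Parp9 and Parp14, lost it in at least 1 of the 12 such fits. In a bulk sample, fewer cells that express a gene and less RNA per cell cannot be told apart.

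**Figure D1:**
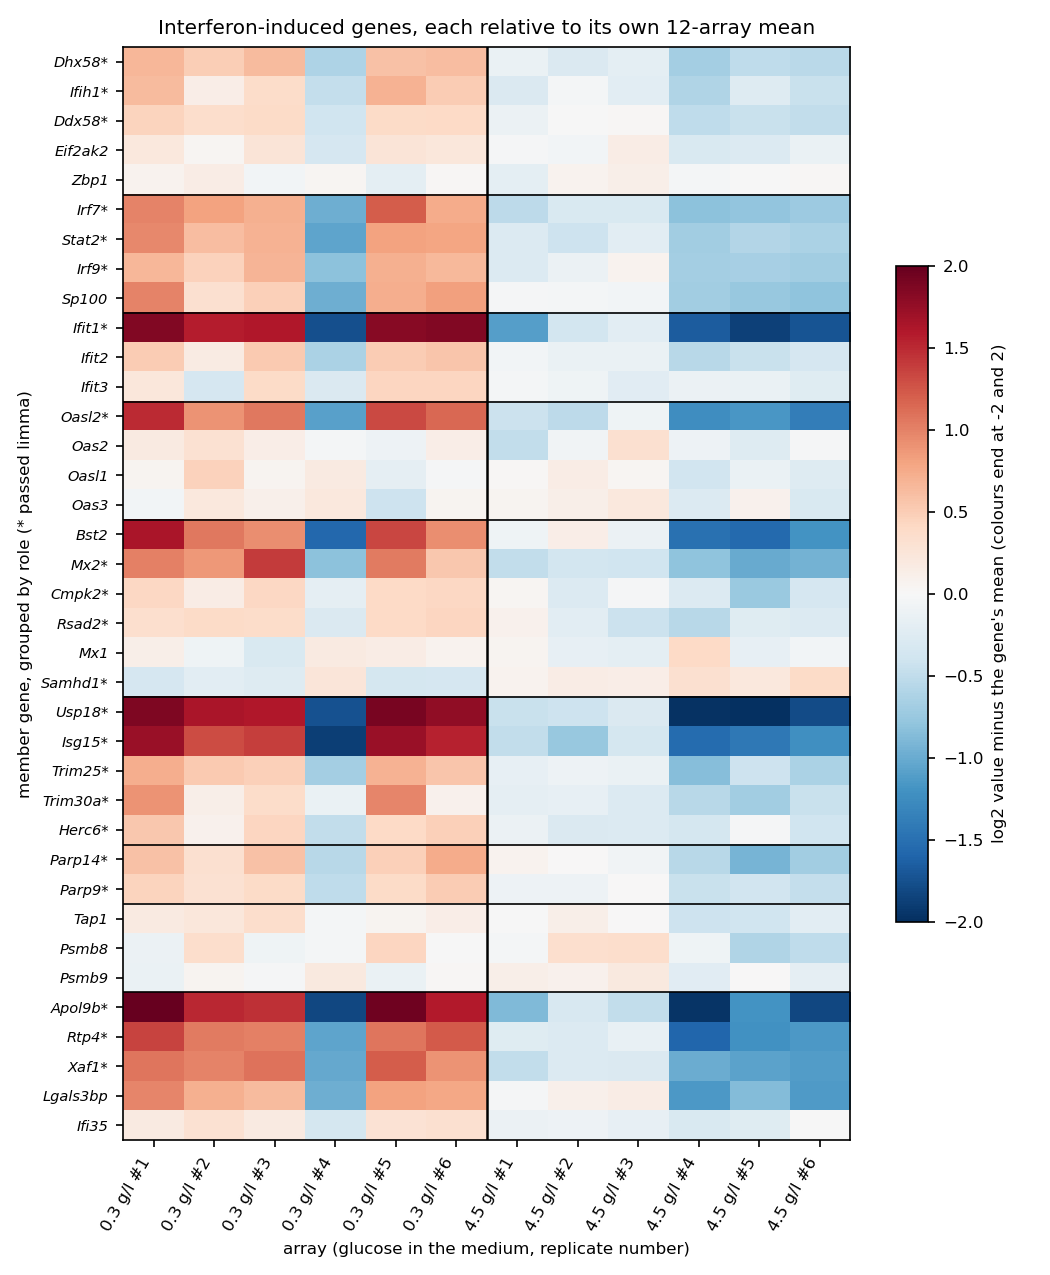
Heat map of the 37 measured genes (rows, grouped by role, asterisk for an adjusted p under 0.05) over the 12 arrays (columns, labelled by glucose and replicate), coloured by the log2 value minus that gene's mean over all arrays. Rows such as Ifit1, Usp18 and Isg15 are red in 5 of the 0.3 g/l arrays, pale blue in 4.5 g/l replicates 1 to 3 and deep blue in 4.5 g/l replicates 4 to 6 and in 0.3 g/l replicate 4.

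The arrays fell at 3 levels rather than 2, as the heat map by array shows. Over the 37 genes, the list mean of 5 of the 0.3 g/l arrays lay between 7.09 and 7.28. At 4.5 g/l, replicates 1 to 3 had list means between 6.40 and 6.50, and for replicates 4 to 6 these were between 5.93 and 5.98. The list mean of the remaining 0.3 g/l array, replicate 4, was 5.99. For 21 members every one of those 5 arrays lay above all of 4.5 g/l replicates 1 to 3, and these above all of replicates 4 to 6, an order found in 3.25% of all genes. Within 4.5 g/l, replicates 4 to 6 lay below replicates 1 to 3 in 26 members (15.3% of all genes). The log2 difference between these ranges had a median of -0.53 over the 26 and of -0.37 over all 37, and was largest in Usp18, -1.59. Replicate 4 was the lowest array of the 0.3 g/l group in 28 members (26.8% of all genes). With all arrays the groups were apart in 1 member called lower, Trim30a (background 2.9%), and in 0 higher (background 3.49%). They were apart in 26 lower members once that array was left out (background 11%). These orders were seen in the values first and are descriptions.

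The glucose difference was then fitted within number ranges. Within replicates 1 to 3, 3 arrays a group, 24 members were lower and 1 higher (background 7.16% and 5.92%), with a median of -0.56. Within replicates 4 to 6, which hold the set-apart array, limma called 0 lower (20 had an unadjusted p under 0.05; background 0.0406% lower). With that array left out the same range gave 29 lower (background 8.94%) and a median of -1.03.

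Of 4 transcription factors 3 fell: Stat2, Irf9 and Irf7. Stat2, a subunit of ISGF3, was 7.31, 9.11 and 9.33 (lowest, median and highest) in 0.3 g/l and 7.67, 7.86 and 8.15 in 4.5 g/l. Its lowest 0.3 g/l value was replicate 4, below all 4.5 g/l arrays, and the other 5 began at 8.99. The difference was -0.94 ± 0.28 (log2, SE; limma adjusted p = 0.0333), and -1.25 without replicate 4. The call was lost in 9 of the 12 fits that leave out an array. Irf9, the DNA-binding subunit of ISGF3, was 7.50, 8.98 and 9.04 in 0.3 g/l and 7.63, 7.86 and 8.39 in 4.5 g/l. The groups again overlapped through replicate 4 alone, since the other 5 arrays lay at 8.79 or above. Its difference was -0.79 ± 0.24 (limma adjusted p = 0.0420), and it also lost the call in 9 of those 12 fits. Irf7, which amplifies interferon production, was 5.47, 7.22 and 7.67 in 0.3 g/l and 5.63, 5.83 and 6.15 in 4.5 g/l. It was 2.23-fold lower in 4.5 g/l (limma adjusted p = 0.0151), and 2.77-fold lower without replicate 4. Sp100, a nuclear body protein, differed by -0.79 ± 0.28 and did not pass (limma adjusted p = 0.0799). When all probe sets were tested, the other 3 of Sp100 differed by -0.59 (limma adjusted p = 0.0319), -0.56 (0.198) and 0.41 (0.0765), the last 2 of them dim.

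Sensors of viral nucleic acid fell in 3 of 5. Dhx58, a regulator of the RNA helicase sensors, was 5.20, 6.42 and 6.49 in 0.3 g/l and 5.15, 5.43 and 5.69 in 4.5 g/l. All but replicate 4 of the 0.3 g/l arrays lay above 4.5 g/l. The difference was -0.78 ± 0.19 (limma adjusted p = 0.0146). The helicases Ifih1 (MDA5) and Ddx58 (RIG-I) were 1.53-fold and 1.43-fold lower, and lost the call in 6 and 8 of the 12 fits that leave out an array. The kinase Eif2ak2 (PKR) differed by -0.22 ± 0.11 (limma adjusted p = 0.214), and passed without replicate 4 (-0.31). Zbp1, a sensor of Z-form nucleic acid, differed by -0.01 ± 0.07.

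**Figure D2:**
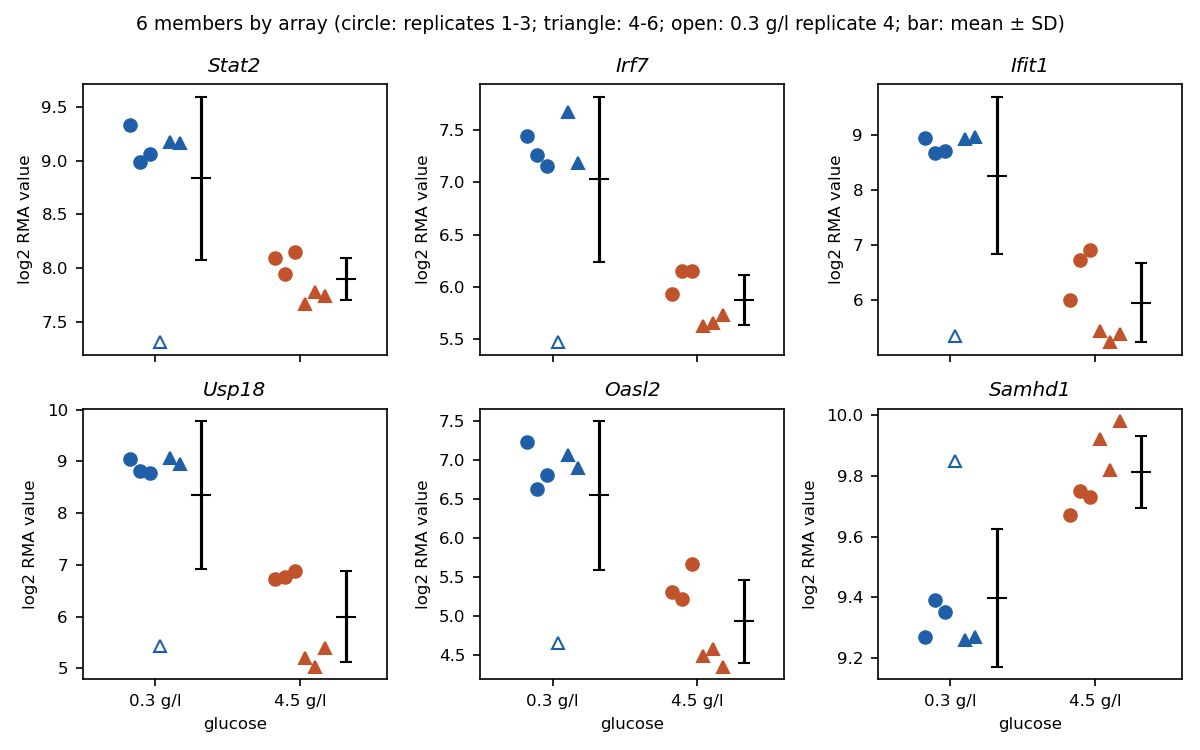
Log2 RMA values (vertical axis) of 6 genes in each array at the 2 glucose levels (horizontal axis); circles are replicates 1 to 3, triangles replicates 4 to 6, the open triangle is 0.3 g/l replicate 4, and bars give the mean and SD of 6 arrays. In Stat2, Irf7, Ifit1, Usp18 and Oasl2 the open triangle lies with or below the 4.5 g/l arrays; in Samhd1, 9.85, it lies among them above the rest of its group.

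Among the IFIT proteins, which bind foreign RNA, Ifit1 had values of 5.35, 8.82 and 8.96 in 0.3 g/l and 5.24, 5.72 and 6.90 in 4.5 g/l. Among the 4.5 g/l arrays, replicates 1 to 3 lay between 6.00 and 6.90. Replicates 4 to 6 lay between 5.24 and 5.44, around 0.3 g/l replicate 4. It was 4.97-fold lower in 4.5 g/l (log2 difference -2.31 ± 0.56, limma adjusted p = 0.0124), 7.45-fold without replicate 4 and 4.7-fold within replicates 1 to 3. Ifit2 differed by -0.55 ± 0.18 and Ifit3 by -0.28 ± 0.14; neither passed (limma adjusted p = 0.0555 and 0.207), and both passed without replicate 4 (-0.73 and -0.36).

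In the oligoadenylate synthetase family, of which some products activate the nuclease RNase L, Oasl2 fell and 3 others did not pass. Oasl2 was 4.65, 6.85 and 7.23 in 0.3 g/l and 4.35, 4.90 and 5.66 in 4.5 g/l. Its 5 upper 0.3 g/l arrays began at 6.63, above every 4.5 g/l array. The difference was -1.61 ± 0.38 (limma adjusted p = 0.0111). Oasl1, its neighbour on the chromosome in RefSeq, differed by -0.19 ± 0.11, Oas2 by -0.21 ± 0.12 and Oas3 by -0.04 ± 0.12. None of these 3 passed without replicate 4 or within replicates 1 to 3.

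Of the proteins that restrict viruses, Mx2, Rsad2 and Cmpk2 fell. Mx2, a dynamin-like GTPase, was 3.57, 5.33 and 5.79 in 0.3 g/l and 3.39, 3.74 and 4.03 in 4.5 g/l. Every 4.5 g/l array was under that limit of 4.20, in the dimmest 25% of genes, where RMA compresses differences, so the difference of -1.34 ± 0.29 (limma adjusted p = 0.00708) is uncertain in size. Mx1, of which this strain carries a defective allele, had means of 2.95 ± 0.19 and 2.91 ± 0.23 (SD, n = 6), both dim. Rsad2 (viperin) and Cmpk2, a mitochondrial nucleotide kinase, are neighbours and differed by -0.54 ± 0.13 and -0.54 ± 0.14. Bst2 (tetherin), which holds budding virus at the membrane, was 7.86, 10.43 and 11.06 in 0.3 g/l and 7.87, 8.77 and 9.57 in 4.5 g/l. Its difference of -1.43 ± 0.48 was among the larger ones but missed the threshold over all 12 arrays (limma adjusted p = 0.0612). Without replicate 4, at 7.86, it was -1.89 (limma adjusted p = 0.000685).

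Samhd1, an enzyme that degrades deoxynucleotides, was the one member to rise. It was 9.26, 9.31 and 9.85 in 0.3 g/l and 9.67, 9.79 and 9.98 in 4.5 g/l. Replicate 4 was the highest 0.3 g/l array, and the other 5, at 9.39 or below, did not reach the 4.5 g/l range. Samhd1 was 1.33-fold higher (log2 difference 0.42 ± 0.10, limma adjusted p = 0.0119), and 1.42-fold without replicate 4.

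Isg15 and the ubiquitin-type modifiers fell in 5 of 5. Usp18, the protease of Isg15, was 5.43, 8.88 and 9.07 in 0.3 g/l and 5.03, 6.06 and 6.89 in 4.5 g/l. Its 4.5 g/l arrays split into 6.73 to 6.89 (replicates 1 to 3) and 5.03 to 5.39 (replicates 4 to 6). The log2 difference of -2.35 ± 0.59, a 5.08-fold fall, was the largest of the members (limma adjusted p = 0.0148), and was 4.23-fold within replicates 1 to 3. Isg15, the ubiquitin-like modifier itself, was 4.99, 8.33 and 8.60 in 0.3 g/l and 5.33, 5.88 and 6.52 in 4.5 g/l. In replicate 4 of 0.3 g/l it was lower than in any 4.5 g/l array. It was 3.81-fold lower in 4.5 g/l (limma adjusted p = 0.0218).

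Trim25, a ubiquitin ligase of the RIG-I pathway, was 5.90, 7.13 and 7.30 in 0.3 g/l and 5.73, 6.29 and 6.48 in 4.5 g/l, a difference of -0.77 ± 0.22 (limma adjusted p = 0.0276). Trim30a was 4.53, 4.90 and 5.63 in 0.3 g/l and 3.97, 4.30 and 4.49 in 4.5 g/l, so that its groups did not touch. Its difference was -0.77 ± 0.18 (limma adjusted p = 0.0105). It was the one member past the exact rank-sum test (adjusted p = 0.0338), which restates that its groups did not touch. That 1 of 37 is below the 4.35% of all genes that this test called lower. In it 18 members had an unadjusted p under 0.05. Herc6, an Isg15 ligase in mice, was 1.39-fold lower.

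**Figure D3:**
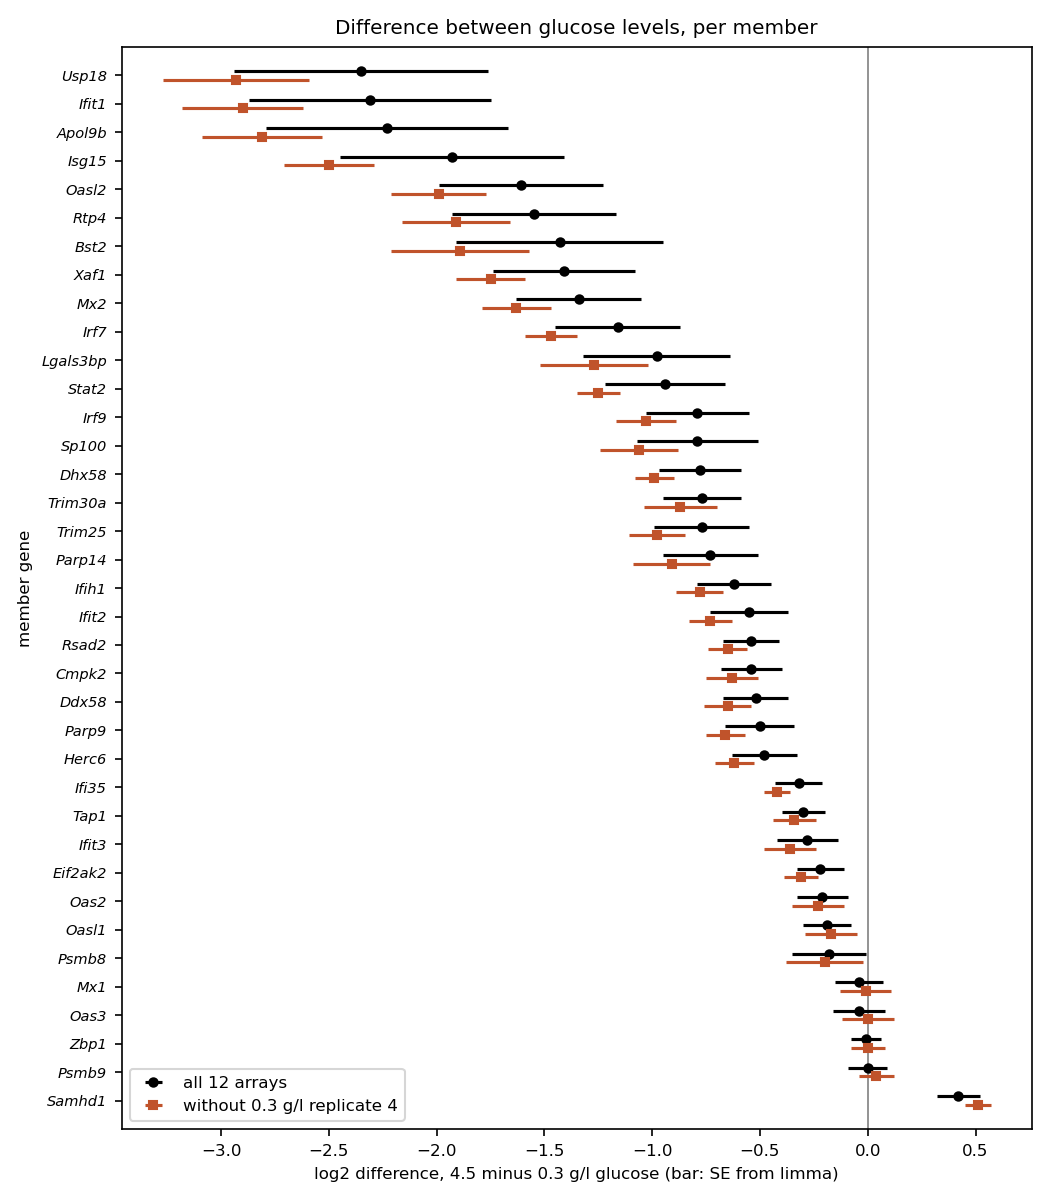
Log2 difference between 4.5 and 0.3 g/l (horizontal axis, bars SE from limma) for each of the 37 genes (vertical axis), with all 12 arrays (black circles) and without 0.3 g/l replicate 4 (orange squares). The black circles run from -2.35 in Usp18 to 0.42 in Samhd1, and the bars of the larger falls are shorter without that array.

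The partners Parp9 and Parp14, ADP-ribosyltransferases of the interferon response, both fell. Parp14 was 5.30, 6.38 and 6.59 in 0.3 g/l and 4.91, 5.54 and 5.91 in 4.5 g/l, with a difference of -0.73 ± 0.22 (limma adjusted p = 0.0416). Parp9 was 1.42-fold lower (limma adjusted p = 0.0443).

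The antigen-processing members did not pass. Tap1, a subunit of the peptide transporter of the endoplasmic reticulum, was 7.03, 7.23 and 7.43 in 0.3 g/l and 6.66, 6.96 and 7.19 in 4.5 g/l. The difference of -0.30 ± 0.10 missed the threshold (limma adjusted p = 0.0615) and passed without replicate 4 (-0.34). The immunoproteasome subunits Psmb8 and Psmb9, its neighbours, differed by -0.18 ± 0.17 and 0.00 ± 0.09 and passed in neither fit. Within replicates 1 to 3 none of the 3 passed in limma, and Psmb8 was higher in 4.5 g/l there (0.17, limma adjusted p = 0.576).

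Other induced proteins fell in 3 of 5. Apol9b, an apolipoprotein L, was 4.59, 7.96 and 8.40 in 0.3 g/l and 4.45, 5.37 and 6.09 in 4.5 g/l, a 4.68-fold fall (limma adjusted p = 0.0151). Its near-identical paralog Apol9a was 2.23-fold lower, and probes may share signal between them, so values of each are uncertain. Rtp4, a receptor-transporting protein, was 5.47, 7.58 and 7.88 in 0.3 g/l and 4.94, 5.81 and 6.37 in 4.5 g/l, 2.92-fold lower (limma adjusted p = 0.0142). Xaf1, a pro-apoptotic protein, was 6.31, 8.36 and 8.54 in 0.3 g/l and 6.21, 6.59 and 7.05 in 4.5 g/l, 2.66-fold lower (limma adjusted p = 0.0102). In all 3 genes replicate 4 was the only 0.3 g/l array within the 4.5 g/l range. Ifi35 differed by -0.32 ± 0.11 (limma adjusted p = 0.0593), and its other probe set by -0.05 (0.761). Lgals3bp, a secreted glycoprotein, differed by -0.98 ± 0.34 (limma adjusted p = 0.0650), and its other probe set passed when all were tested (-0.91, limma adjusted p = 0.0407).

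Few upstream genes of the pathway outside the members passed. Of 17 measured interferon ligand genes, 0 passed in limma (2 with an unadjusted p under 0.05; 3 in the rank-sum test, where 0 passed after adjustment). Ifnb1 had means of 3.02 ± 0.14 and 3.05 ± 0.21 (SD, n = 6), below the bound of the dimmest 25%, and similar ligand genes can share probes. Only 7 of the 17 ligand genes were left when the dimmest 25% of genes were filtered out. Of these, 0 fell and 1 rose in limma. A change in the other, dim ligand genes could have been missed. Of 14 receptor and signalling genes 1 fell and 1 rose, near the 8.52% and 7.01% of all genes. Ifnar1 was 1.18-fold lower (log2 difference -0.24 ± 0.08, limma adjusted p = 0.0490) and lost the call in 18 of 27 alternatives, cyclic loess and 11 of the 12 fits that leave out an array among them. Stat3 was 1.16-fold higher (limma adjusted p = 0.0123) and lost the call in 6 of 27, median centring and the fit with replicate number as a block (replicate block) among them. Ifnar2 differed by -0.17 ± 0.07 (limma adjusted p = 0.117), Irf1 by 0.02 ± 0.08 and Irf3 by 0.09 ± 0.06. Of 12 sensors and adaptors outside the members 0 passed in limma, and 4 had an unadjusted p under 0.05. In the rank-sum test 1 had an unadjusted p under 0.05 and 0 passed after adjustment. Without 0.3 g/l replicate 4, 2 of the 12 fell, near the 13.6% of all genes. The sensors Dhx58, Ifih1 and Ddx58, which are members and not in this list, fell as given above. Among 7 negative regulators the RNA-editing enzyme Adar, itself interferon-induced, fell by 0.49 ± 0.12 on the log2 scale. Pias1, a SUMO ligase that inhibits cytokine signalling, was 1.33-fold higher. That is 1 of 7 each way, against 8.52% of all genes lower and 7.01% higher.

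**Figure D4:**
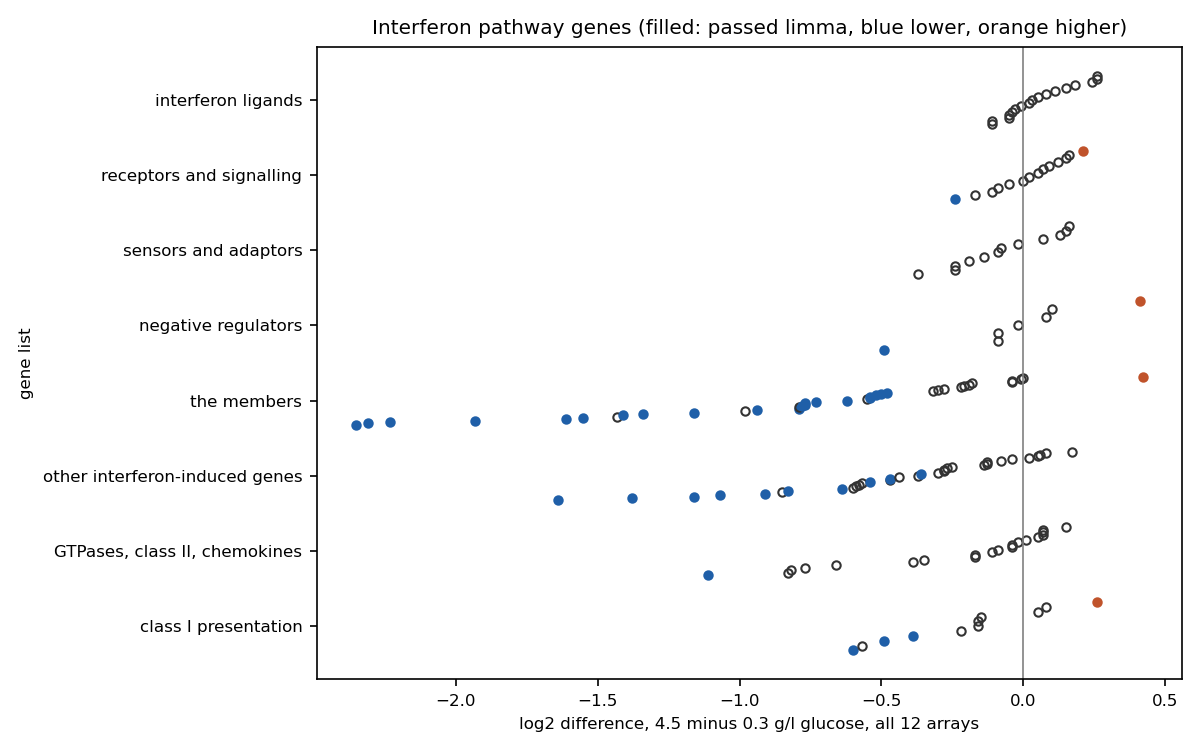
Log2 difference between 4.5 and 0.3 g/l over 12 arrays (horizontal axis) for each measured gene of 8 lists (vertical axis); filled points passed limma, blue lower and orange higher, and open points did not pass. The lists of ligands, receptors and sensors, which hold no members, lie between -0.37 and 0.26. The members, the sensors Dhx58, Ifih1 and Ddx58 among them, and the other interferon-induced genes extend to -2.35 and -1.64.

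Induced genes outside the 40 moved in the same direction. Of 33 measured, 10 fell and 0 rose in limma, with a median of -0.37, and 21 fell without 0.3 g/l replicate 4. Over all genes limma called 8.52% lower with all arrays and 13.6% without that array. In the rank-sum test 1 of the 33 fell and 0 rose, against 4.35% of all genes called lower. There 13 of the 33 had an unadjusted p under 0.05. Isg20, an RNA exonuclease, was 1.78-fold lower (log2 difference -0.83 ± 0.12, limma adjusted p = 0.000513). Its pattern differed from that of the members: at 4.5 g/l it was lower in replicates 1 to 3 (7.69 to 7.77) than in replicates 4 to 6 (7.93 to 8.12). Tor3a, an ATPase of the endoplasmic reticulum, was 1.88-fold lower and the helicase Helz2 1.45-fold lower. The list of interferon-gamma-type GTPases, class II genes and chemokines had 1 of 20 genes called lower, the guanylate-binding protein Gbp3 (2.16-fold). That is below the 8.52% of all genes. Without replicate 4, 6 of the 20 were called lower, against 13.6% of all genes. The chemokine Cxcl10 differed by 0.07 ± 0.12. In class I presentation outside the members, 3 of 11 fell and 1 rose, against 8.52% and 7.01% of all genes. The chaperone Calr fell by 0.60 ± 0.13 on the log2 scale, the disulfide isomerase Pdia3 was 1.4-fold lower and the proteasome subunit Psmb10 1.31-fold lower. Calr and Pdia3 are better known as folding proteins of the endoplasmic reticulum. Tapbp was 1.2-fold higher. It lost the call in 13 of 27 alternatives, among them median centring, the replicate block and 8 of the 12 fits that leave out an array, and Psmb10 lost it in 7 of those 12.

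Endothelial markers moved with part of this pattern. Their list mean (15 of 15 measured) lay between 7.48 and 7.55 in 5 of the 0.3 g/l arrays and was 7.16 in the remaining array, replicate 4. At 4.5 g/l the list mean of replicates 1 to 3 lay between 7.58 and 7.66, and that of replicates 4 to 6 between 6.93 and 6.97. The 4 arrays lowest in the interferon-induced genes were also the 4 lowest in endothelial markers. Endothelial markers were not alone in splitting by number range at 4.5 g/l. Fibroblast means were 7.08 to 7.13 for numbers 1 to 3 and 6.74 to 6.91 for numbers 4 to 6. At 0.3 g/l, however, replicate 4 had the highest fibroblast mean, 6.94. Smooth muscle means split the opposite way, 10.72 to 10.83 against 10.91 to 10.97. Macrophage and adipocyte means overlapped. Within replicates 1 to 3, where 24 members were lower in 4.5 g/l, 1 endothelial marker (Tek) was lower and 3 (Erg, Sox17 and Sox18) were higher. The background in that range was 7.16% lower and 5.92% higher. The 15 differences there ran from -0.45 (Tek) to 0.49 (Sox18), with a median of 0.16. The part of endothelial or other cells in the glucose difference was not tested. Their part in the difference between 4.5 g/l replicates 1 to 3 and 4 to 6, and in 0.3 g/l replicate 4, was not tested either. Within replicates 4 to 6 without 0.3 g/l replicate 4, where 29 members were lower, 10 of the 15 endothelial markers were lower too, with a median of -0.45 (background 8.94%). Over all 12 arrays 1 of the 15, Emcn, fell (background 8.52%). Without 0.3 g/l replicate 4, where the background was 13.6%, 3 did: Emcn, Tek and Cdh5 (-0.75).

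**Figure D5:**
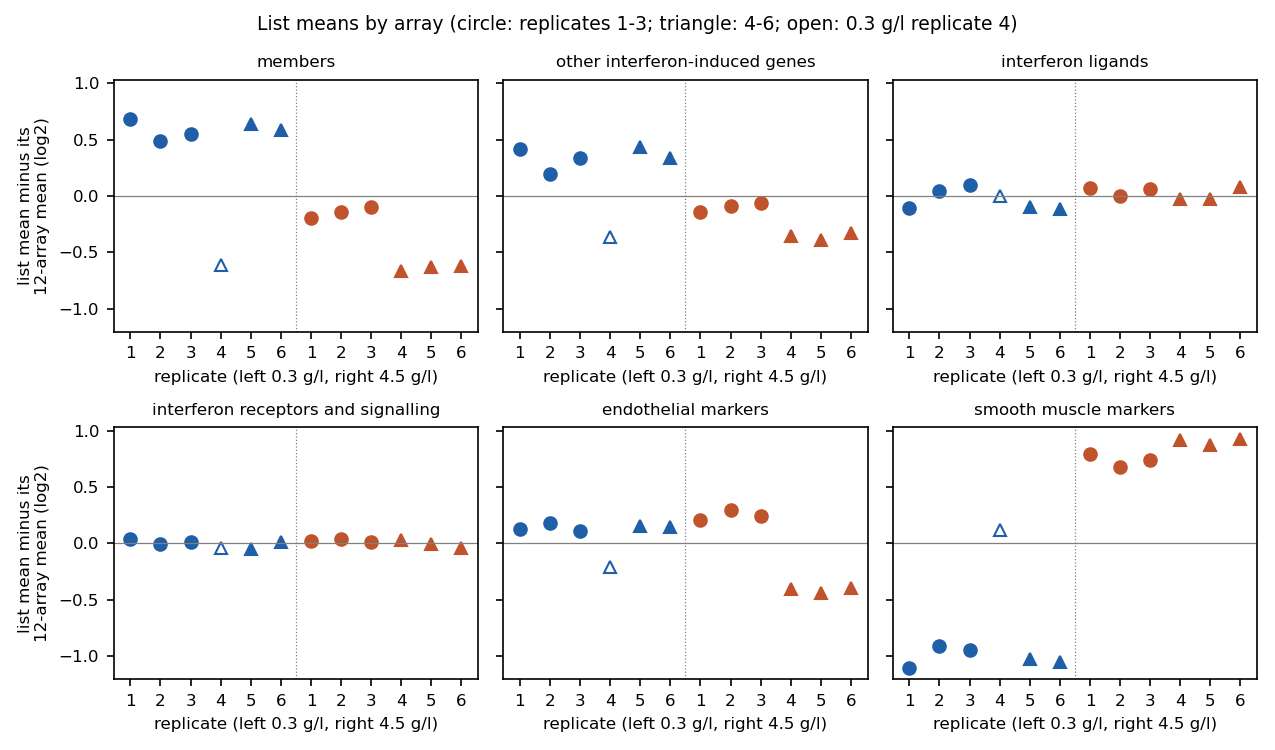
Mean of each of 6 gene lists in each array minus its mean over 12 arrays (vertical axis, log2), by replicate number (horizontal axis, 0.3 g/l left and 4.5 g/l right of the dotted line); circles are replicates 1 to 3, triangles 4 to 6, and the open triangle is 0.3 g/l replicate 4. Members and other interferon-induced genes drop in 4.5 g/l and again in its replicates 4 to 6, ligands and receptors stay near 0, and endothelial markers drop in replicates 4 to 6 of 4.5 g/l and in 0.3 g/l replicate 4 alone. Most ligand genes are in the dimmest 25% of genes, where a change can be missed.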

How the data were processed

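Total RNA was extracted with a kit and biotin-labelled after fragmentation, per the labels' protocols, and hybridised to an Affymetrix array. The authors deposited 1 table of log2 values for 41345 probe sets in 12 samples, made with Affymetrix Expression Console and RMA per the submitters' processing notes. The values run from 0.60 to 13.90, as log2 intensities do. Software versions, scan dates and genome build: not given in the sources used here. No batch could therefore be set. Quantile normalization within RMA hides changes in total RNA and compresses dim genes. Groups followed the sample labels, and no columns were identical.

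The platform annotation named 1 symbol for 23521 probe sets, several for 1814 and none for 16010. For the 1082 genes with more than 1 probe set the brightest by mean was used. Glucose levels were tested with limma 3.58.1 under R 4.3.3 (two-sided, Benjamini-Hochberg over 22180 genes, threshold 0.05). Members, lists and the rule for named genes (the 14 largest called differences, the smallest p in each role, up to 4 called genes per pathway list and some fixed names) were chosen with earlier results of these data known; Bst2, Rsad2 and Samhd1 and other members are named to account for all. In simulated data of this comparison with 22180 genes, 78%, 94%, 100% and 100% of 50 genes each changed by log2 0.5, 1, 2 and 3 were recovered, and 10 of 196 calls were false. Older symbols were matched through the RefSeq gene table (GRCm38.p6). Alternatives were other moderation, filtering, scaling, probe set rules, weights, blocks, tests and subsets of arrays. Precision is limited by the number of arrays (median SE 0.0931). The SE was larger in members such as Usp18 (0.59), Bst2 (0.48) and Lgals3bp (0.34). Bst2, at -1.43, and Lgals3bp, at -0.98, did not pass with all arrays. Whether the recovery of 94% at log2 1 holds at such SEs was not tested.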

Additional observations from a re-analysis of the deposited data

Results flagged for a closer look

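In 23 of the 37 measured genes, 1 array of the 0.3 g/l group lay far from the other 5: its gap to the nearest of them was more than 0.625 of the group's whole range (Dixon's limit for 6 samples). In each case that array was replicate 4. It was the lowest in 22 of the 23 and the highest in Samhd1. Over all genes replicate 4 was lowest and apart by this measure in 6.92%. Among independent normal values such an array is found in about 1 in 20 groups. In these data 3270 of the 22180 genes had one in the 0.3 g/l group. The members varied together and the array was the same, so the 23 are not independent cases. The gap as a share of the range was 0.921 in Ifit1, 0.919 in Usp18, 0.898 in Ddx58, 0.88 in Isg15 and 0.869 in Rsad2. It was 0.861 in Dhx58, 0.861 in Apol9b, 0.859 in Xaf1, 0.854 in Rtp4, 0.838 in Irf9 and 0.836 in Stat2. Values of 0.821 in Lgals3bp, 0.819 in Trim25, 0.813 in Parp9, 0.782 in Bst2, 0.776 in Ifi35, 0.769 in Irf7, 0.767 in Oasl2 and 0.767 in Samhd1 followed. The smallest were 0.675 in Parp14, 0.671 in Ifit2, 0.658 in Sp100 and 0.63 in Eif2ak2. The 4.5 g/l group had no such array in any of the 37 genes.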

How the results depend on the processing

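The count of members called lower, 21 with all arrays, ranged from 12 to 29 when each array was left out in turn, and the count called higher stayed at 1. It was 12 without 0.3 g/l replicate 1, 3, 5 or 6 or 4.5 g/l replicate 4, 13 without 4.5 g/l replicate 6, and 29 without 0.3 g/l replicate 4. The median difference ran from -0.78 to -0.54 genes called lower from 1303 to 3007 and genes called higher from 1202 to 2288. Array weights called 3072 genes lower and 2347 higher. The exact rank-sum test called 1 member lower and 0 higher, and 965 and 1028 genes; a limma test against a fold of 1.2 called 0 members either way (21 with an unadjusted p under 0.05), and 189 and 265 genes. Replicates 4 to 6 alone gave 0 members either way and 9 and 21 genes (3 arrays a group); without 0.3 g/l replicate 4 their median moved to -1.03. Other moderation, a filter on dim genes, 3 scalings and other probe set rules gave 21 to 26 members lower. Same-numbered arrays did not deviate together (correlations of deviations -0.05 to 0.17, 1 of 6 arrays closest to its own number), so the numbers were not taken as pairs; the replicate block gave 27 members and 1711 genes lower. Genes with a difference near 0 that never passed changed sign. Zbp1 reached 0.00 with array weights, 0.04 in replicates 4 to 6 and 0.08 there without 0.3 g/l replicate 4 (-0.05 to 0.03 leaving out arrays); Oas3 0.02, 0.05 in replicates 1 to 3 and 0.01 in replicates 4 to 6 without that array (-0.12 to 0.02); Psmb8 0.17 in replicates 1 to 3. Psmb9 was -0.04, -0.02 and -0.04 with quantile, loess and median scaling, and -0.16 and -0.07 in replicates 4 to 6 with and without that array (-0.03 to 0.05). Ifnb1 was -0.02 and -0.01 with quantile and median scaling (-0.05 to 0.07), Irf1 -0.01 and -0.02, and -0.06 in replicates 4 to 6 (-0.04 to 0.05), and Cxcl10 -0.20 and -0.09 there with and without that array (-0.02 to 0.12). The causes were not tested. Dim probes limit Mx2, Mx1, Ifnb1 and most of the other ligand genes.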
